A study of Mus musculus with 6 samples.

Results

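The genes described here are the secreted and membrane part of the Wnt pathway, with 3 of its nuclear genes: Wnt ligands, frizzled receptors, the Lrp5 and Lrp6 co-receptors, the secreted antagonists of the Sfrp and Dickkopf families with Frzb and Wif1, and Axin2, Lef1 and Tcf7. They were taken from the complete count table by a rule on gene symbols, and number 44 of 55367 symbols. The rule was chosen with earlier results of these data known. Messenger RNA was sequenced from a mouse fibroblastic reticular cell (FRC) line, a stromal cell of the lymph node, held for 96 h in conditioned medium that was renewed every 48 h. The 6 libraries make 3 groups of 2: control medium was conditioned by the FRC line itself, 67NR medium by 67NR cells and 4T1 medium by 4T1 cells, both mouse mammary carcinoma lines. In every group the medium was plain RPMI conditioned for 24 h and then supplemented with 2% serum and antibiotics, so no group shows FRCs in medium that no cell had conditioned, and the loss of FRC products, the gain of tumour cell products and nutrient use cannot be told apart. The FRCs are 1 line, and nothing in the labels tells separate cultures from repeat libraries of 1 culture, so the spread behind each p-value may be technical.

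Wnt proteins are lipid-modified ligands that bind a frizzled receptor. Together with Lrp5 or Lrp6 they stop the destruction of beta-catenin, which then works with Tcf and Lef factors at target genes such as Axin2, itself a scaffold of the destruction complex and a widely used readout of that branch. Other ligands, Wnt5a and Wnt11 among them, are mostly known for beta-catenin-independent signalling through frizzleds and the Ror and Ryk receptors. Sfrp proteins and Frzb carry a frizzled-like domain and bind Wnts in the extracellular space, whereas Dkk1, Dkk2 and Dkk4 act on Lrp5 and Lrp6. Dkk3 is a divergent relative with little known activity on these co-receptors. In lymphoid stroma, as in other fibroblasts, Wnt signals bear on growth and matrix production.

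Total counts per library ranged from 13581510 to 21797578, and the 44 genes took 0.327 to 0.659% of them. Sfrp2 had more of these counts than any other member in every library, with 63079 and 43599 in control, 96894 and 91162 in 67NR and 22630 and 27253 in 4T1 medium. Sfrp1 came next in 4T1 medium, with 10661 and 16192. Mitochondrial transcripts took 1.32 and 1.87% of counts in control medium, 1.96 and 2.28% in 67NR medium and 2.11 and 2.37% in 4T1 medium, and their part in the results was not tested. Of 13 FRC and fibroblast markers, Thy1, Ccl19 and Ccl21a had no counts in any library, while Pdpn, Pdgfra, Pdgfrb, Vcam1 and Cxcl12 were measured in all. Icam1 was too scarce for the test, at 0.0463 to 0.363 CPM (reads of a gene scaled to a common library size). Il7 (0.788 to 1.63 CPM) and Col1a2 (5.2 to 15.7 CPM) were tested but low. The summed level of the 13 markers was 20900 to 21100 CPM in control, 22500 to 23400 CPM in 67NR and 13800 to 14500 CPM in 4T1 medium. Nearly all of that sum was Col1a1, with means of 13800 CPM in control and 6910 CPM in 4T1 medium, and Cxcl12, with 6290 and 6010 CPM. The markers did not move together: of the 9 tested, 3 were higher in 4T1 than in control medium (Pdgfra, log2 1.92, Vcam1, log2 1.61, and Ltbr, log2 0.46), 4 were lower (Col1a2, Col1a1, Pdgfrb and Pdpn) and the median log2 fold change was -0.07. The summed level of 6 leukocyte markers was at most 1.28 CPM in any library, that of 6 epithelial and carcinoma markers lay between 0.218 and 2.39 CPM with Epcam at 0, and that of 5 endothelial markers between 0.599 and 3.1 CPM with Prox1 at 0. Epithelial and endothelial sums were lower in 4T1 medium than in the other media, and the part of these markers in the results was not tested. Single genes made up much of this. Mean Kdr was 1.23 CPM in control and 0.0338 CPM in 4T1 medium, and mean Cdh1 was 1.44 and 0.23 CPM. The endothelial marker Pecam1, at 0.419 and 0.549 CPM, was not lower than in control. In bulk libraries, a fall in the number of cells that express a gene and a fall in RNA per cell cannot be told apart.

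The promoters of 3 genes are shown: Wnt11 had the largest fall of the set in 4T1 medium, Axin2 is the readout of the beta-catenin branch and also fell there, and Sfrp2 was the most abundant gene of the set and differed in both tumour media. Each line gives the 250 bases before the RefSeq transcription start (GRCm38, the assembly of mm10), 5′ to 3′ on the strand of the gene, which is the plus strand for all 3. Capitals mark a match to the core of the Tcf and Lef binding motif, CTTTGA, searched on both strands.
Axin2 at chr11:108920099-108920348: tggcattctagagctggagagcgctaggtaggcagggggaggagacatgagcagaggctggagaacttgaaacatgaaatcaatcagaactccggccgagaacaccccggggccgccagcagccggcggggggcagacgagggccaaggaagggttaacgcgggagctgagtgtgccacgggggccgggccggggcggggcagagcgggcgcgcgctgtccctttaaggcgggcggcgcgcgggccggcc
Wnt11 at chr7:98834862-98835111: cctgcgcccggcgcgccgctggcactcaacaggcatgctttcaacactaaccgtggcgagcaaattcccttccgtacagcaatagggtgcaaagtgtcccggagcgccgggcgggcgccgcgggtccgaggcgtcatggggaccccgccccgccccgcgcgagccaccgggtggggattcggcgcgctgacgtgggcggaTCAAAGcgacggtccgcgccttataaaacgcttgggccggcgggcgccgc
Sfrp2 at chr3:83766071-83766320: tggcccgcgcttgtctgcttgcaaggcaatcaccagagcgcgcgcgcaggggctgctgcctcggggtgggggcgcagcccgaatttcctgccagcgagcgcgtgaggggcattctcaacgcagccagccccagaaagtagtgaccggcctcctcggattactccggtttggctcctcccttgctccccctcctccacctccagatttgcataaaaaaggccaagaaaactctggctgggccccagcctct
Wnt11 held a match, reading TCAAAG on the gene's strand, that begins 50 bases before the start shown. RefSeq gives Wnt11 another start, whose window held no match, and neither Axin2 nor Sfrp2 held these letters. RefSeq promoters were found for 30 of the 44 genes, 37 windows of 300 bases that run 50 bases past the start. Of these, 6 held the motif (16.2%), against 16.0% of all 32851 windows of the table. The 6 belonged to Wnt11, Wnt5b, Fzd1, Lef1, Frzb and Dkk1. A match is a description of the letters only.

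Of the 44 genes, 26 were abundant enough to be tested, 8 had a few counts and 10 had none. Each tested gene passed the filter on low counts in at least 2 of the 3 groups, and 24 passed in all 6 libraries (Axin2 and Wnt11 were the others). Of the 26, 22 passed the test in at least 1 comparison. In 4T1 against control medium 5 were higher, beside 19.9% of all 15055 genes tested, and 11 were lower, beside 19.2%. In 67NR against control medium 12 were higher, beside 13.0% of all genes, and 3 were lower, beside 14.6%. In 4T1 against 67NR medium 3 were higher, beside 23.5%, and 16 were lower, beside 19.9% (edgeR quasi-likelihood test, Benjamini-Hochberg adjusted over all genes tested, threshold 0.05). As shares of the 26, these were 19.2 and 42.3%, 46.2 and 11.5%, and 11.5 and 61.5%. The median log2 fold change of the 26 was -0.29, 0.37 and -0.60 in the 3 comparisons, and that of all genes was 0.01, 0 and 0.03. The comparisons with control medium share the control libraries, and 4T1 against 67NR medium is the difference of those 2. The 3 comparisons therefore are not independent of each other. Without control replicate 1, with the remaining control library taken to vary as much as the pairs do, 3 rather than 5 genes were higher in 4T1 medium.

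**Figure D1:**
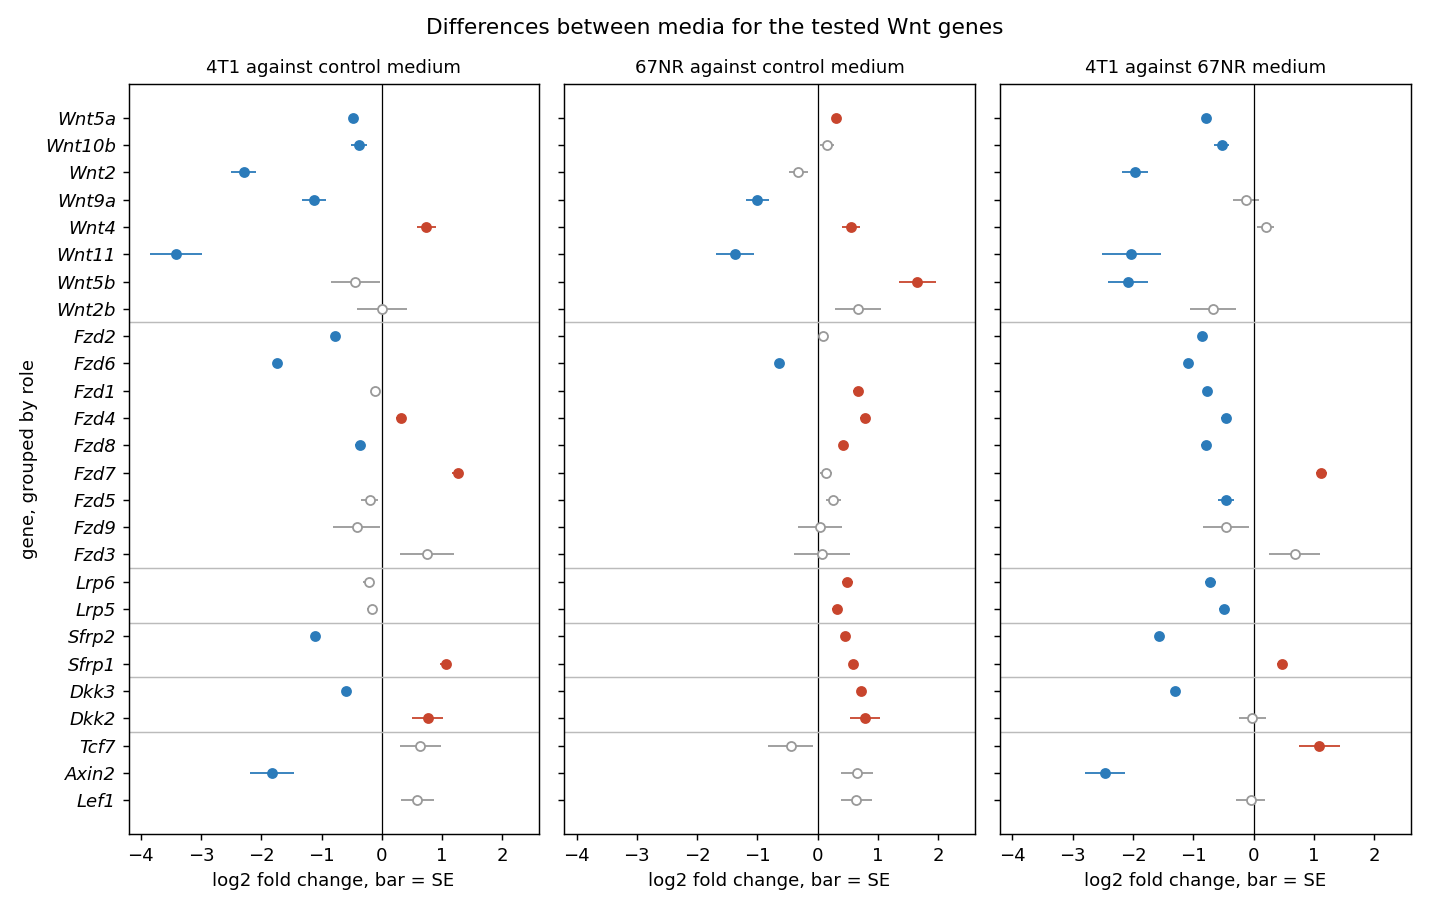
Log2 fold change (horizontal axis) of the 26 tested genes (vertical axis, grouped by role) in the 3 comparisons. Points are edgeR estimates with their standard error as bars; filled red points were higher and filled blue points lower past the threshold, and open points did not pass. Of the 26 genes, 11 were lower in 4T1 than in control medium, 12 were higher in 67NR than in control medium, and 16 were lower in 4T1 than in 67NR medium.

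Among the 19 ligands, 8 were tested. In 4T1 medium Wnt2, Wnt9a, Wnt11, Wnt5a and Wnt10b fell and Wnt4 rose against control medium. In 67NR medium Wnt5b, Wnt4 and Wnt5a rose and Wnt9a and Wnt11 fell. Against 67NR medium, 5 ligands were lower in 4T1 medium (Wnt2, Wnt5b, Wnt11, Wnt5a and Wnt10b) and none passed as higher. Wnt2b passed in no comparison, at 0.595 to 1.76 CPM over the 6 libraries.

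Wnt5a (chromosome 14, 28504750 to 28527448) had the highest level per length of all ligands in each medium. Its values were 77.3 and 75.6 CPM in control, 95.9 and 93.3 CPM in 67NR and 54.4 and 55.2 CPM in 4T1 medium. The 3 groups did not overlap, with 67NR medium highest and 4T1 medium lowest. The log2 fold change was -0.48 (SE 0.07, edgeR adjusted p = 0.00011) for 4T1 and 0.31 (SE 0.07, adjusted p = 0.00382) for 67NR against control, and -0.79 (SE 0.07) for 4T1 against 67NR. The rise in 67NR medium no longer passed without control replicate 2 (adjusted p = 0.0525) or without 67NR replicate 1 (adjusted p = 0.0615). An antisense gene, Gm2670, covers 4.58% of the Wnt5a exons and had 22 counts in all, against 8314 for Wnt5a.

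Wnt11 (chromosome 7, 98835112 to 98855195), a ligand best known for polarity and cell movement, had 61 and 46 counts in control, 19 and 34 in 67NR and 6 and 4 in 4T1 medium. As CPM these were 3.17 and 3.42, then 0.88 and 1.65, then 0.406 and 0.218. Every library in control medium was above every library in the tumour media, and 4T1 medium was lowest. The log2 fold change against control was -3.41 (SE 0.43, edgeR adjusted p = 4.03e-05) in 4T1 and -1.37 (SE 0.31, adjusted p = 0.00539) in 67NR medium, and 4T1 against 67NR gave -2.03 (SE 0.49, adjusted p = 0.00474). The 67NR libraries were far apart: without 67NR replicate 1 the difference from control no longer passed (log2 -0.98, adjusted p = 0.0811), nor did that from 4T1 medium without 67NR replicate 2 (log2 -1.52, adjusted p = 0.0619).

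Wnt2 (chromosome 6, 17988940 to 18030585), a ligand of the beta-catenin branch that is made by mesenchyme in several organs, was at 6.75 and 7.51 CPM in control, 5.74 and 5.64 CPM in 67NR and 1.28 and 1.58 CPM in 4T1 medium. The 4T1 libraries stood well under the other 4. Wnt2 fell by 2.29 on the log2 scale (SE 0.21, edgeR adjusted p = 1.85e-06) against control and was lower than in 67NR medium (log2 -1.97, SE 0.21, adjusted p = 5.81e-06). For 67NR against control the difference did not pass (log2 -0.32, SE 0.16, adjusted p = 0.159). Wnt9a was lower in both tumour media, at 6.18 and 6.99 CPM in control, 3.34 and 3.21 CPM in 67NR and 3.45 and 2.61 CPM in 4T1 medium. The tumour media overlapped for Wnt9a, and their difference did not pass (log2 -0.13, SE 0.21, adjusted p = 0.667).

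Wnt4, a ligand of kidney and gonad development, rose in both tumour media. It was at 5.45 and 5.8 CPM in control, 7.83 and 8.56 CPM in 67NR and 8.72 and 9.97 CPM in 4T1 medium. The log2 fold change against control was 0.74 (SE 0.15, edgeR adjusted p = 0.00157) in 4T1 and 0.55 (SE 0.15, adjusted p = 0.0149) in 67NR medium. The call in 67NR medium was lost without control replicate 1 (adjusted p = 0.112), control replicate 2 (0.0521) or 67NR replicate 2 (0.108), and with DESeq2 (0.0942).

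Wnt5b, a close relative of Wnt5a, was at 0.934 and 0.669 CPM in control, 2.69 and 2.48 CPM in 67NR and 0.676 and 0.545 CPM in 4T1 medium. Only the 67NR libraries stood apart. Wnt5b rose by 1.65 on the log2 scale in 67NR medium (SE 0.31, edgeR adjusted p = 0.00151) and was lower in 4T1 than in 67NR medium (log2 -2.08, SE 0.33, adjusted p = 0.000185). The 4T1 and control groups overlapped (log2 -0.44, SE 0.41, adjusted p = 0.437). Wnt10b, a ligand of the beta-catenin branch, was at 12 and 13.5 CPM in control, 14.8 and 13.4 CPM in 67NR and 9.26 and 10.2 CPM in 4T1 medium. It was lower in 4T1 than in control medium (log2 -0.38, SE 0.13, adjusted p = 0.0311), a call that ended without control replicate 2 (adjusted p = 0.167), without 4T1 replicate 1 (0.0934) and with DESeq2 (0.135), and, with no overlap, lower than in 67NR medium (log2 -0.53, SE 0.12, adjusted p = 0.00335).

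Divided by exon length, so that genes can be set side by side, the ligands summed to 21.2 and 21.8 CPM per kb in control, 23.8 and 23 in 67NR and 14.1 and 14.5 in 4T1 medium. Wnt5a made up 44.3 to 51.8% of that sum in every library. Wnt10b followed in each medium. In control medium the order after them was Wnt2, Wnt9a, Wnt4 and Wnt11, and no neighbours among these 6 overlapped. In 4T1 medium Wnt4 came next, with 14.7 and 16.4% of the sum against 6.14 and 6.33% in control, and Wnt2 took 4.03 and 4.83% against 14.1 and 15.3%.

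**Figure D2:**
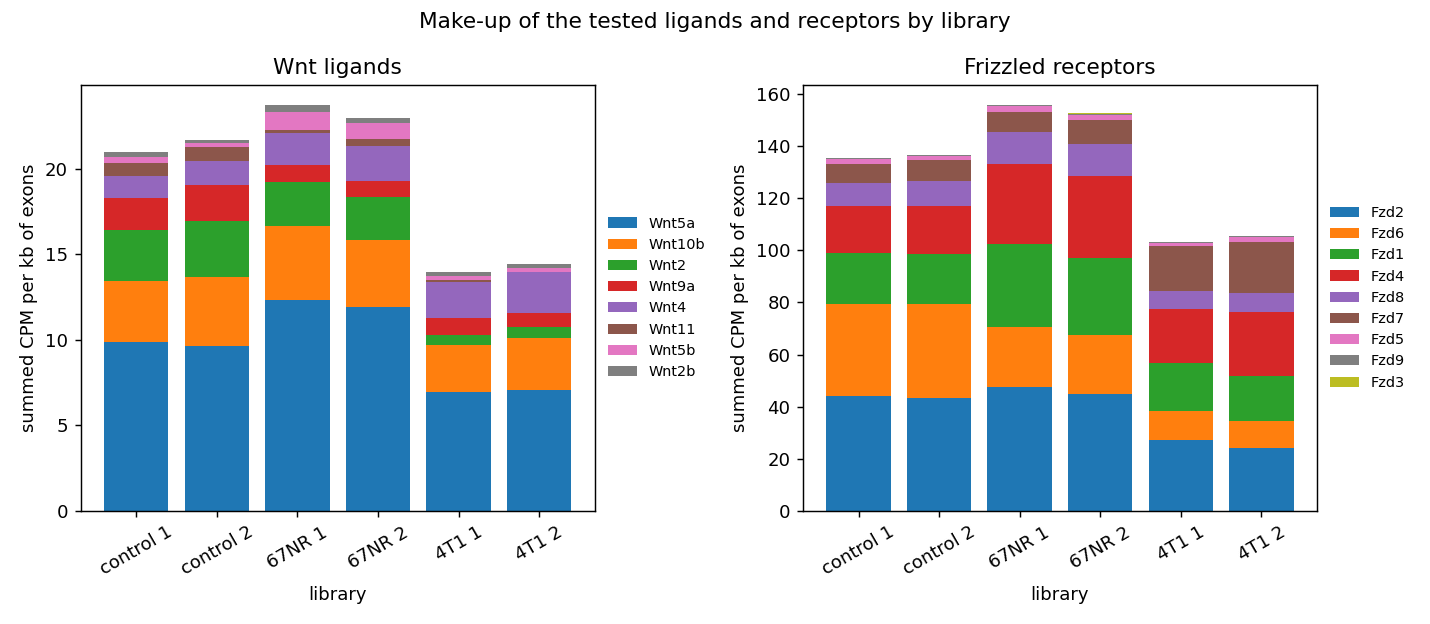
Summed level of the tested ligands (left) and frizzleds (right) in each library (horizontal axis), as CPM per kb of exons (vertical axis, starting at 0), with 1 colour a gene. Bars of both panels are lowest in the 4T1 libraries, and the Fzd6 segment shrinks from 26.1 and 26.6% of the receptors in control medium to 10.6 and 9.94% in 4T1 medium.

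Of the 10 frizzleds, the seven-pass membrane receptors for Wnts, 9 were tested. In 4T1 medium Fzd7 and Fzd4 rose and Fzd6, Fzd2 and Fzd8 fell against control. In 67NR medium Fzd4, Fzd1 and Fzd8 rose and Fzd6 fell. Against 67NR medium, 4T1 medium had more Fzd7 and less Fzd6, Fzd2, Fzd8, Fzd1, Fzd5 and Fzd4. Fzd3 (0.623 to 1.91 CPM) and Fzd9 (0.708 to 1.09 CPM) passed in no comparison.

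Fzd6 (chromosome 15, 39006034 to 39038188), a receptor known for planar polarity, was at 170 and 175 CPM in control, 111 and 109 CPM in 67NR and 52.8 and 50.5 CPM in 4T1 medium. The groups formed 3 separate steps. Fzd6 fell by 1.74 on the log2 scale (SE 0.07, edgeR adjusted p = 4.84e-10) in 4T1 and by 0.65 (SE 0.06, adjusted p = 7.29e-06) in 67NR medium, and 4T1 was lower than 67NR (log2 -1.09, SE 0.07, adjusted p = 3.59e-08). The lncRNA Gm26704 starts on the opposite strand and overlaps 3.15% of the Fzd6 exons, with 50 counts against 11982.

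Fzd7 (chromosome 1, 59482424 to 59486955), a receptor of both pathway branches, was at 33.7 and 36.8 CPM in control, 36.1 and 41.5 CPM in 67NR and 78.6 and 89.3 CPM in 4T1 medium. Control and 67NR libraries overlapped and the 4T1 libraries were above all of them. The log2 fold change was 1.26 (SE 0.09, edgeR adjusted p = 2.85e-07) against control and 1.12 (SE 0.09, adjusted p = 5.42e-07) against 67NR medium, while 67NR against control gave 0.14 (SE 0.10, adjusted p = 0.305). Its close relatives did otherwise. Fzd2 was at 161 and 158 CPM in control, 174 and 165 CPM in 67NR and 99.9 and 87.4 CPM in 4T1 medium, a fall of the 4T1 libraries alone (log2 -0.77, SE 0.07, adjusted p = 3.38e-06 against control). Fzd1 was at 83.2 and 79.2 CPM in control, 134 and 123 CPM in 67NR and 77.4 and 73.5 CPM in 4T1 medium, so that it was the 67NR libraries that stood apart (log2 0.66, SE 0.07, adjusted p = 1.72e-05 against control). In 4T1 medium Fzd1 differed from control by -0.11 on the log2 scale (SE 0.07, adjusted p = 0.27).

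Fzd4, which is also the receptor for the non-Wnt ligand norrin, was at 120 and 125 CPM in control, 207 and 212 CPM in 67NR and 140 and 164 CPM in 4T1 medium. It rose by 0.78 (SE 0.08, edgeR adjusted p = 8.23e-06) in 67NR and by 0.31 (SE 0.08, adjusted p = 0.00597) in 4T1 medium on the log2 scale, the latter not passing without control replicate 1 (adjusted p = 0.0791). Fzd8, a receptor of the beta-catenin branch, was at 53 and 56.3 CPM in control, 72.7 and 73.2 CPM in 67NR and 40.4 and 44.1 CPM in 4T1 medium. Its 3 groups were separate, with a log2 fold change of 0.42 (SE 0.07, adjusted p = 0.00101) in 67NR and -0.37 (SE 0.08, adjusted p = 0.00217) in 4T1 medium. Fzd5, at 12 and 11.7 CPM in control, 13.7 and 14.7 CPM in 67NR and 8.92 and 11.5 CPM in 4T1 medium, was lower in 4T1 than in 67NR medium (log2 -0.46, SE 0.13, adjusted p = 0.0119), which was lost without 67NR replicate 2 (adjusted p = 0.087) or 4T1 replicate 1 (0.068). It passed as lower in 4T1 than in control medium without 4T1 replicate 2 alone (adjusted p = 0.0388, against 0.271).

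Per kb of exons, the frizzleds summed to 136 and 137 CPM in control, 156 and 153 in 67NR and 103 and 105 in 4T1 medium. In control medium the order was Fzd2, Fzd6, Fzd1, Fzd4, Fzd8, Fzd7 and Fzd5 with no overlap between neighbours. In 67NR medium Fzd4 and Fzd1 overlapped, at means of 31.2 and 30.7 CPM per kb. In 4T1 medium Fzd2 overlapped with Fzd4 (25.6 and 22.6 CPM per kb), and Fzd7 with Fzd1 (18.5 and 18 CPM per kb). Fzd7 went from 5.48 and 5.94% of the receptor sum in control to 16.8 and 18.7% in 4T1 medium.

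**Figure D3:**
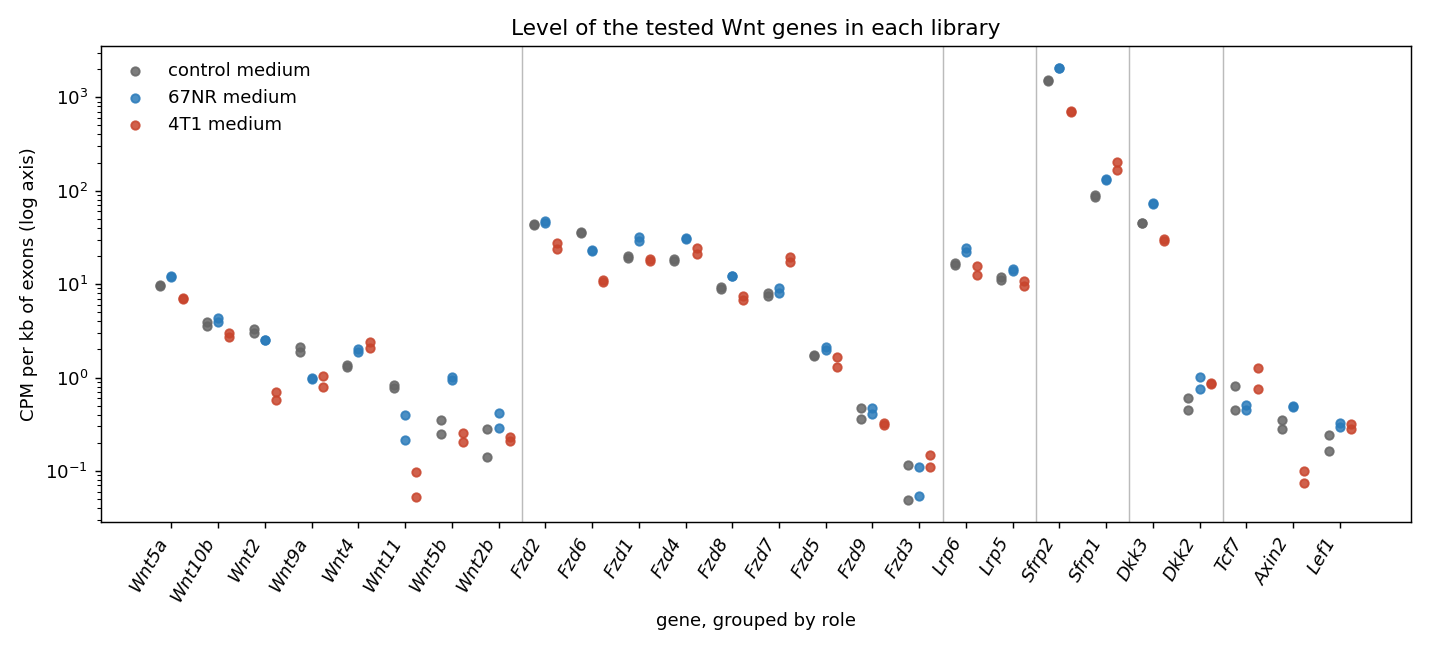
Level of each tested gene (horizontal axis, grouped by role) as CPM per kb of exons (vertical axis, logarithmic), with a point for each library coloured by medium. Sfrp2 lies above all other genes in every library, Wnt5a is the highest ligand, and Axin2 and Wnt11 have their lowest points in 4T1 medium.

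The co-receptors Lrp5 and Lrp6 were abundant in all libraries. Lrp6 was at 220 and 230 CPM in control, 300 and 333 CPM in 67NR and 173 and 212 CPM in 4T1 medium. Lrp5 was at 107 and 115 CPM in control, 143 and 134 CPM in 67NR and 92.5 and 105 CPM in 4T1 medium. For both genes the 67NR libraries were highest and the 4T1 libraries lowest, without overlap. Lrp6 and Lrp5 rose in 67NR medium by 0.49 (SE 0.09, edgeR adjusted p = 0.00117) and 0.32 (SE 0.08, adjusted p = 0.00745) on the log2 scale, and were lower in 4T1 than in 67NR medium by -0.72 (SE 0.09) and -0.49 (SE 0.08). Against control, the differences of -0.22 for Lrp6 (SE 0.09, adjusted p = 0.0693) and -0.17 for Lrp5 (SE 0.08, adjusted p = 0.104) in 4T1 medium did not pass. Lrp6 did pass there with the replicate block (edgeR adjusted p = 0.0145) and with no filter (0.00645), a fit that gave far smaller p-values for abundant genes. Without 4T1 replicate 2 the log2 difference from control was -0.38 for Lrp6 and -0.27 for Lrp5. The Lrp5 rise was lost without control replicate 1 (adjusted p = 0.105) or 67NR replicate 1 (0.104).

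Secreted antagonists held the most abundant transcripts of the set, and they moved in opposite directions in 4T1 medium. Sfrp2 (chromosome 3, 83766321 to 83774316) was at 3270 and 3240 CPM in control, 4490 and 4440 CPM in 67NR and 1530 and 1480 CPM in 4T1 medium. Replicates differed little and the 3 groups lay far apart. The log2 fold change was -1.11 (SE 0.06, edgeR adjusted p = 1.75e-08) in 4T1 and 0.45 (SE 0.06, adjusted p = 0.000129) in 67NR medium, and -1.57 (SE 0.06, adjusted p = 6.86e-10) between them. The antisense gene Gm26771 covers 16.1% of the Sfrp2 exons and had 455 counts, against 344617.

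Sfrp1 (chromosome 8, 23411502 to 23449632) was at 393 and 376 CPM in control, 580 and 575 CPM in 67NR and 721 and 882 CPM in 4T1 medium. It stepped up from control to 67NR to 4T1 medium, with the 4T1 libraries farthest from each other. Against control it rose by 1.06 (SE 0.09, edgeR adjusted p = 5.97e-07) in 4T1 and by 0.59 (SE 0.08, adjusted p = 0.000222) in 67NR medium on the log2 scale, and 4T1 was above 67NR by 0.47 (SE 0.08, adjusted p = 0.000507). Per kb, Sfrp2 exceeded Sfrp1 by 16.9 and 17.5 times in control, 15.7 times in both 67NR libraries, and 4.31 and 3.42 times in 4T1 medium. The Sfrp family with Frzb summed to 1610 and 1590 CPM per kb in control, 2220 and 2190 in 67NR and 876 and 891 in 4T1 medium.

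Frzb, also called Sfrp3, had too few counts for the test: 0 and 0 in control, 1 and 2 in 67NR and 8 and 6 in 4T1 medium. With the control group set at its floor, 3 counts in all, the 4T1 level was 4.61-fold higher. That value takes the 14 counts in 4T1 medium as exact, so it is not a lower bound. The ratio to 67NR medium was 5.93 (95% counting interval 1.66 to 32.2), an interval that covers counting error only. Fitted with no filter, 4T1 against control had an adjusted p of 0.00785 (edgeR), and 4T1 against 67NR, at 0.0856, did not pass. That fit also gave far smaller p-values for abundant genes. Fzd6 in 4T1 against control went from an adjusted p of 4.84e-10 to 1.85e-100 (edgeR). The Frzb values are therefore not on the scale of the main test.

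Dkk3 (chromosome 7, 112116017 to 112159057) was at 150 CPM in both control libraries, 247 and 242 CPM in 67NR and 96.3 and 102 CPM in 4T1 medium. As for Sfrp2, 67NR medium was highest and 4T1 medium lowest, with no overlap. The log2 fold change was 0.71 (SE 0.06, edgeR adjusted p = 3.14e-06) in 67NR and -0.60 (SE 0.06, adjusted p = 8.51e-06) in 4T1 medium, and -1.31 (SE 0.06, adjusted p = 4.02e-09) between them. Dkk2 was scarce, at 1.66 and 2.23 CPM in control, 2.78 and 3.8 CPM in 67NR and 3.18 and 3.27 CPM in 4T1 medium. It passed as higher in 4T1 (log2 0.76, SE 0.26, adjusted p = 0.0371) and 67NR medium (log2 0.78, SE 0.25, adjusted p = 0.037). With DESeq2 neither call held (adjusted p = 0.192 and 0.176), nor did either without control replicate 1 (0.277 and 0.28). The 4T1 call was also lost without 4T1 replicate 1 (0.0714) or 2 (0.104), and the 67NR call without control replicate 2 (0.0566) or 67NR replicate 2 (0.278).

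**Figure D4:**
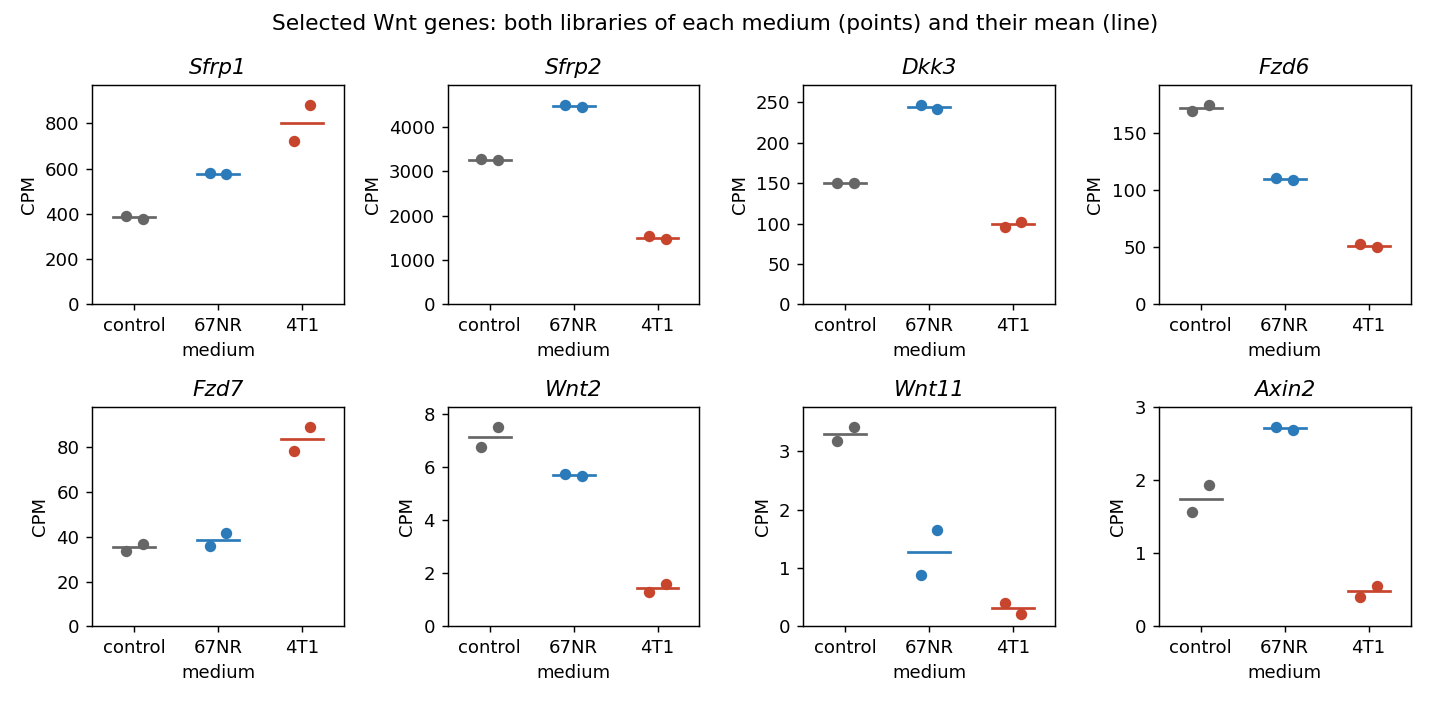
CPM (vertical axis, starting at 0) of 8 genes, picked by hand, in both libraries of each medium (points, with a line at their mean). Some genes with large differences, such as Wnt5b and Wnt9a, are not shown. Sfrp1 and Fzd7 are highest in 4T1 medium, at 721 to 882 and 78.6 to 89.3 CPM, and the other 6 genes are lowest there.

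Axin2 (chromosome 11, 108920349 to 108950783) had 30 and 26 counts in control, 59 and 55 in 67NR and 6 and 10 in 4T1 medium. As CPM these were 1.56 and 1.93, then 2.73 and 2.68, then 0.406 and 0.545. The 3 groups did not overlap and 4T1 medium was lowest. Axin2 fell by 1.82 on the log2 scale in 4T1 against control medium (SE 0.37, edgeR adjusted p = 0.00171) and was lower in 4T1 than in 67NR medium (log2 -2.47, SE 0.33, adjusted p = 5.27e-05). The difference of 0.65 for 67NR against control (SE 0.26, adjusted p = 0.0827) did not pass.

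Lef1 and Tcf7, DNA-binding partners of beta-catenin, were scarce. Lef1 lay between 1.45 and 2.87 CPM over the 6 libraries and passed in no comparison, with a log2 fold change against control of 0.59 (SE 0.27, edgeR adjusted p = 0.104) in 4T1 and 0.64 (SE 0.26, adjusted p = 0.0846) in 67NR medium. Tcf7 was at 2.13 and 1.19 CPM in control, 1.34 and 1.17 CPM in 67NR and 1.96 and 3.32 CPM in 4T1 medium, and the control libraries overlapped with those of both tumour media. It was higher in 4T1 than in 67NR medium (log2 1.09, SE 0.34, adjusted p = 0.0194), a call lost without 4T1 replicate 2 (log2 0.63, adjusted p = 0.252), without either 67NR library (0.0615 and 0.104) and with DESeq2 (0.0982). Against control it passed in 4T1 medium without 4T1 replicate 1 alone (log2 0.94, adjusted p = 0.0488, against log2 0.64 and adjusted p = 0.153). The antisense gene Gm43352 covers 13.7% of the Lef1 exons.

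No counts were found for Wnt3, Wnt3a, Wnt7a, Wnt7b, Wnt8b, Wnt9b, Wnt10a, Fzd10, Dkk1 and Dkk4. The limit for such a gene, 3 counts in a group, is 0.0917 CPM in control, 0.0712 CPM in 67NR and 0.0905 CPM in 4T1 medium. Besides Frzb, the untested genes with counts were Wnt1, Wnt6, Wnt8a, Wnt16, Sfrp4, Sfrp5 and Wif1. The totals of the 8 over all libraries ran from 2 counts for Wnt8a and Sfrp5 to 43 for Sfrp4, with at most 12 in a library. Wif1, a secreted antagonist that binds Wnts directly, had 19 counts in 67NR medium, 8 in 4T1 medium and 6 in control medium.

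The rest of the pathway was followed through 7 lists chosen by known function, here described by counts beside the same 4T1 (19.9% higher, 19.2% lower), 67NR (13.0 and 14.6%) and 4T1 against 67NR (23.5 and 19.9%) shares of all genes. Ligand secretion was represented by Porcn, which attaches the lipid, and Wls, the carrier to the cell surface. Porcn rose in 4T1 medium, from 6.85 and 8.32 to 13.6 and 13 CPM (log2 0.82, SE 0.14, edgeR adjusted p = 0.000354), and Wls fell from 910 and 915 to 725 and 706 CPM (log2 -0.35, SE 0.06, adjusted p = 0.000502). In 67NR medium neither passed, with Porcn at 8.8 and 8.22 CPM and Wls at 926 and 918 CPM.

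R-spondins strengthen Wnt signals through Lgr receptors by keeping the ubiquitin ligases Znrf3 and Rnf43 from removing frizzleds. Of 9 genes in that list 4 were tested. Rspo2 was at 63 and 70.4 CPM in control, 80.5 and 80.2 CPM in 67NR and 18.3 and 16.7 CPM in 4T1 medium, so it fell in 4T1 (log2 -1.93, edgeR adjusted p = 2.47e-09) and rose in 67NR medium (log2 0.27, adjusted p = 0.0182). Rspo3 rose in 4T1 medium, from 9.92 and 11.1 to 25.6 and 23.3 CPM (log2 1.22, adjusted p = 2.34e-06), and did not pass in 67NR medium (10.2 and 11.3 CPM). The receptor Lgr4 fell in both tumour media, from 57.5 and 55 CPM in control to 40.4 and 39.9 CPM in 67NR and 27.5 and 29.9 CPM in 4T1 medium. Znrf3 passed in no comparison, and Lgr5 had no counts.

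Of 9 other extracellular modulators 4 were tested, and in 4T1 medium 1 was higher and 2 were lower than in control. Cthrc1, a secreted protein that binds Wnts and favours the non-canonical branch, was at 53.7 and 58 CPM in control, 33 and 32.7 CPM in 67NR and 6.35 and 6.54 CPM in 4T1 medium. It fell by 3.11 in 4T1 (edgeR adjusted p = 7.4e-11) and by 0.76 in 67NR medium (adjusted p = 1.13e-05) on the log2 scale. Apcdd1, a membrane inhibitor of the pathway, fell in 4T1 (log2 -0.80) and rose in 67NR medium (log2 0.87), at 30.5 and 33.7 CPM in control, 57 and 59.5 CPM in 67NR and 19.1 and 17.8 CPM in 4T1 medium. Draxin, a secreted guidance protein and Wnt antagonist, rose in 4T1 medium (log2 2.40, adjusted p = 0.000205) from 0.363 and 0.52 to 2.3 and 2.29 CPM. Kremen1, the Dickkopf receptor, rose in 67NR medium (log2 0.27, adjusted p = 0.0129).

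Non-canonical receptors and polarity genes had 8 tested members of 11, of which 1 rose and 3 fell in 4T1 and 5 rose and 1 fell in 67NR medium, with a median log2 fold change of -0.04 and 0.44. Against 67NR medium 1 was higher and 4 were lower in 4T1 medium (median log2 -0.40). The scaffold Prickle1 (log2 -1.45) and the receptor Ryk (log2 -0.30) fell and the co-receptor Ptk7 rose (log2 0.64) in 4T1 medium. Prickle1 was scarce, at 1.14 and 1.19 CPM in control, 1.71 and 1.65 CPM in 67NR and 0.406 and 0.436 CPM in 4T1 medium. Prickle2 (log2 0.85), the Wnt5a receptor Ror2 (log2 0.53) and its relative Ror1 (log2 0.44) rose in 67NR medium. Ror1 was lower in 4T1 than in 67NR medium (log2 -0.73, edgeR adjusted p = 4.54e-05), as were Prickle1 (log2 -1.98) and Prickle2 (log2 -0.74).

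All 16 genes of signal transduction and the destruction complex were tested. Against control medium most did not pass: 3 rose and 1 fell in 4T1, and 2 rose in 67NR medium. Between the tumour media 9 passed, 4 higher and 5 lower in 4T1 than in 67NR medium, Csnk1a1 (log2 0.56) and Apc2 (log2 -0.92) among them. Ctnnb1, which encodes beta-catenin, was the gene that fell in 4T1 medium, from 602 and 561 to 402 and 434 CPM (log2 -0.48, edgeR adjusted p = 9.7e-05), and was at 620 and 605 CPM in 67NR medium. The kinases Csnk1a1 (log2 0.60) and Gsk3b (log2 0.29), which mark beta-catenin for destruction, rose in 4T1 medium. The scaffolds Apc2 (log2 0.67) and Amer1 (log2 0.47) rose in 67NR medium. Of 11 nuclear partners, 3 rose and 3 fell in 4T1 and 5 rose in 67NR medium, and 1 was higher and 7 were lower in 4T1 than in 67NR medium. The coactivators Pygo1 (log2 0.85) and Bcl9 (log2 0.69) rose in 4T1 medium. The corepressors of the Tle family differed: Tle4 fell (log2 -0.71, mean 3.94 CPM in 4T1 medium), while the more abundant Tle3 rose (log2 0.39, edgeR adjusted p = 0.00061, mean 90.5 CPM). Tle3 is outside the rule for names and was chosen after its values were seen. The corepressor Tle2 (log2 0.79), Bcl9 (log2 0.51) and Tcf7l1 (log2 0.35) rose in 67NR medium. Tcf7l1, mostly a repressor in the absence of beta-catenin, was lower in 4T1 than in 67NR medium (log2 -0.79, adjusted p = 2.49e-06).

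Of 10 genes listed as beta-catenin targets 3 were tested, and each is also under the control of other pathways. Myc, the growth regulator, rose in 4T1 and fell in 67NR medium, at 78.8 and 83.5 CPM in control, 56.9 CPM in both 67NR libraries and 156 and 143 CPM in 4T1 medium (log2 0.88 and -0.51). Cyclin D1 (Ccnd1) fell in both, from 185 and 187 CPM to 121 and 132 CPM in 67NR and 107 and 132 CPM in 4T1 medium (log2 -0.55 and -0.64). Ccn4, a matricellular protein, fell in 67NR medium (log2 -0.48, edgeR adjusted p = 0.000572) and did not pass in 4T1 medium (log2 0.15, adjusted p = 0.154). Between the tumour media, Myc (log2 1.39) and Ccn4 (log2 0.63) were higher in 4T1 than in 67NR medium, and Ccnd1 did not pass (log2 -0.08). In 4T1 against control medium, Axin2 and Ccnd1 were lower, Myc was higher and Ccn4 did not pass. Against 67NR medium, Myc and Ccn4 were higher and Axin2 was lower (log2 -2.47).

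**Figure D5:**
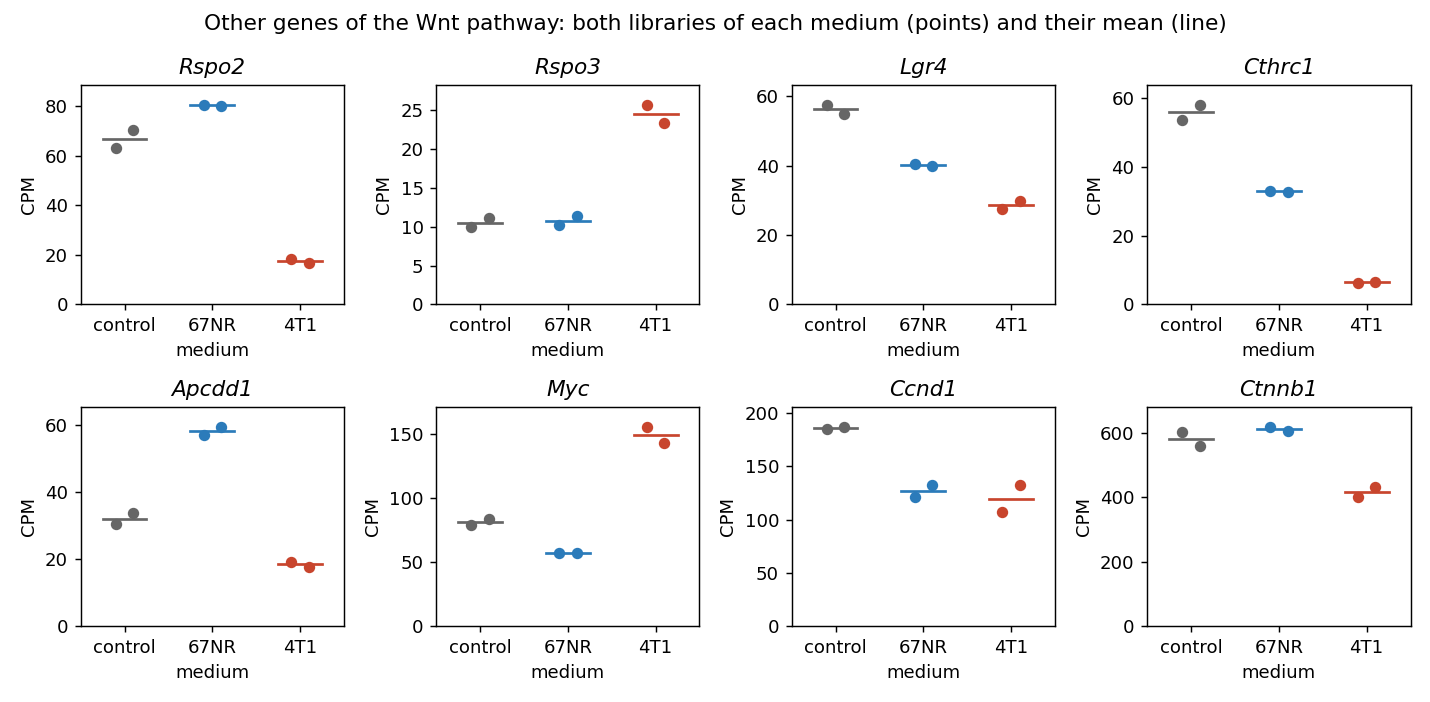
CPM (vertical axis, starting at 0) of 8 further pathway genes in both libraries of each medium (points; the line is their mean). Rspo2 and Cthrc1 are lowest in 4T1 medium, at 16.7 to 18.3 and 6.35 to 6.54 CPM, whereas Rspo3 and Myc are highest there, at 23.3 to 25.6 and 143 to 156 CPM.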

How the data were processed

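Messenger RNA was selected with poly(A) beads from 500 ng of total RNA and made into directional libraries, per the labels' protocols. Whole-number read counts by gene symbol were deposited by the authors in a complete and a filtered table. Subread, mm10 and DESeq2 1.32.0 are named in the labels, per the submitters' processing notes. The strand setting of the counting is not given in the sources used here. Genes with antisense partners are therefore uncertain. Besides those named above, genes on the opposite strand overlap 17.8% of the Fzd5 exons, 8.8% of the Wnt11 exons and 3.8% of the Axin2 exons. Each of these partners had 0 counts.

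Members and gene lists were chosen with earlier results of these data known. From the complete table, filterByExpr (edgeR 4.0.16, at least 10 counts in a library and 15 in total) left 15055 genes, scaled by TMM. A quasi-likelihood fit of all 6 libraries gave log2 fold changes. Each SE is the size of that value divided by the square root of its F statistic. The spread was estimated over all media together. The 4T1 libraries differed more from each other (chi-square per degree of freedom 8.21) than those of control (4.19) or 67NR medium (4.26). What this does to the SEs was not tested. A single count stood for 0.0463 to 0.0743 CPM. Exon lengths and positions are from GENCODE M21 (GRCm38), which matched all 44 symbols. The rule for names was each member, with library values for those past the threshold, and up to 3 called genes of each list. The fit was also run on simulated counts, with far fewer changed genes than were called here and the same spread in every medium. That run does not show the error rate in these data. Alternatives were DESeq2 size factors, library totals, no filter, the filtered table's genes, a replicate block, fits of 2 groups, the DESeq2 1.42.0 Wald test, limma-voom (limma 3.58.1) and each library left out. With a library left out, the filter on low counts was run anew on the rest. Fits used R 4.3.3 and figures matplotlib 3.10.9.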

Additional observations from a re-analysis of the deposited data

How the results depend on the processing

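Over 14 alternatives, 886 of the fits of the 22 called genes kept direction and side of the threshold, 28 lost a call, 6 gained one and 4 changed sign. The sign changes concerned differences that did not pass: Dkk2 between 4T1 and 67NR medium (0.02 with library totals alone, -0.24 to 0.21 with a library left out, log2 scale), Tcf7 between 67NR and control medium (-0.76 to 0.08 with a library left out) and Wnt9a between 4T1 and 67NR medium (-0.33 to 0.07 with a library left out). The number of genes higher in 4T1 than in control medium was 3 to 6 with a library left out. All other counts of called genes stayed within 1.5 times under all alternatives run. With the replicate block, 12 rather than 11 genes were lower in 4T1 than in control medium, Lrp6 being the gene that passed in addition, and the other 5 counts were the same. Same-numbered libraries deviated from their group means with correlations of -0.0513 to 0.0772, and the labels do not say that the numbers pair the samples. Counts of 4 to 10 a library limit Axin2, Wnt11 and Wnt5b in 4T1 medium, and Wnt5b had 9 counts in control replicate 2. Of the 8 genes under the filter, fitted with no filter, Frzb in 4T1 against control medium was the 1 difference that passed. The fit with no filter gave far smaller p-values for abundant genes than the main fit. Gains by members outside the 22, such as Frzb, are not in the tally above.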

Other observations

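Nkd1, an inhibitor of Dishevelled and a target of beta-catenin, was too scarce for the test and is given here, with its relative Nkd2, after their values were seen. It was at 0.26 and 0.372 CPM in control, 0.417 and 0.292 CPM in 67NR and 0 CPM in both 4T1 libraries, where a group count of 0 allows 0.0905 CPM. Its relative Nkd2, as scarce and also untested, lay the other way, at 0 and 0.0743 CPM in control, 0.139 and 0.0973 CPM in 67NR and 0.473 and 0.218 CPM in 4T1 medium.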
